A study of Sus scrofa with 15 samples.

Results

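The genes considered were all those annotated on the mitochondrial genome (chromosome MT) of the pig build Sscrofa10.2, 37 of the 25322 genes in the count tables. They were chosen by chromosome alone, so no measured value entered the choice. By length and position they comprised 13 protein-coding genes of 204 to 1821 bases, 2 ribosomal RNA (rRNA) genes of 960 and 1571 bases that lie ahead of the first protein-coding gene, and 22 transfer RNA (tRNA) genes of 59 to 75 bases. A symbol was paired with the identifier for the 13 protein-coding genes only, so the rRNA and tRNA genes are given by identifier. The tissue was mammary gland, biopsied from 3 second-parity crossbred sows (Danish Landrace × Yorkshire) at 14, 10, 6 and 2 d before parturition and 1 d after it, which gave 15 libraries with 3 per time point. The 3 sows were described as those with the highest colostrum yield. Each was fed a different diet, namely alfalfa meal with trioctanoate, sugar beet pulp with palm fatty acid distillate, or alfalfa meal with soybean oil, and an effect of diet cannot be told apart from one of the sow. The same sows were sampled at all time points, and 14 d prepartum served as the baseline of the comparison with each later time point (+1vs-14 sets 1 d postpartum against it), so that these comparisons share their control libraries.

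The mitochondrial genome encodes core subunits of the oxidative phosphorylation (OXPHOS) chain, together with the rRNA and tRNA needed to translate them inside the organelle. All other OXPHOS subunits, the mitochondrial ribosomal proteins and the factors that copy and transcribe the genome are nuclear-encoded and imported. Each strand is transcribed as a long precursor that is cut at the tRNA genes. Most of the released mRNA and, with shorter tails, the rRNA are polyadenylated. Lactation is costly in energy, and the secretory epithelium of the mammary gland is rich in mitochondria when milk is made.

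Total counts per library ran from 10782343 to 19952918. The 3 libraries of 1 d postpartum were among the shallower ones, with 10782343, 11416874 and 15744454 counts. The 10 highest non-mitochondrial genes of a library took 13.6% to 15.9% of its counts at 14 d prepartum and 28.4% to 51.5% at 1 d postpartum. The value of 51.5% was that of library 37, and its TMM factor (trimmed mean of M-values, which rescales the library size so that the typical gene is level between libraries) was 0.545, the lowest of the 15. Values normalized with and without TMM are therefore both given below. Library numbers are those of the sample labels.

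The mitochondrial genome held a nearly constant part of all counts. The share was 7.80% ± 0.211 (SD, n = 3) at 14 d, 7.55% ± 0.0402 at 10 d, 8.15% ± 0.0680 at 6 d and 7.57% ± 0.163 at 2 d prepartum, and 7.61% ± 0.926 at 1 d postpartum. At 6 d all 3 libraries lay above those of 14 d, at 10 d all lay below them, and the libraries of 2 d and of 1 d postpartum overlapped with those of 14 d. The postpartum libraries were spread the most, with 6.63% in library 37, 8.47% in library 40 and 7.72% in library 43. Once the 25 non-mitochondrial genes that ranked among the 10 highest in any library were taken out of the total, the share was 9.33% at 14 d, 9.34% at 10 d, 10.6% at 6 d, 11.0% at 2 d and 12.9% at 1 d postpartum.

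**Figure D1:**
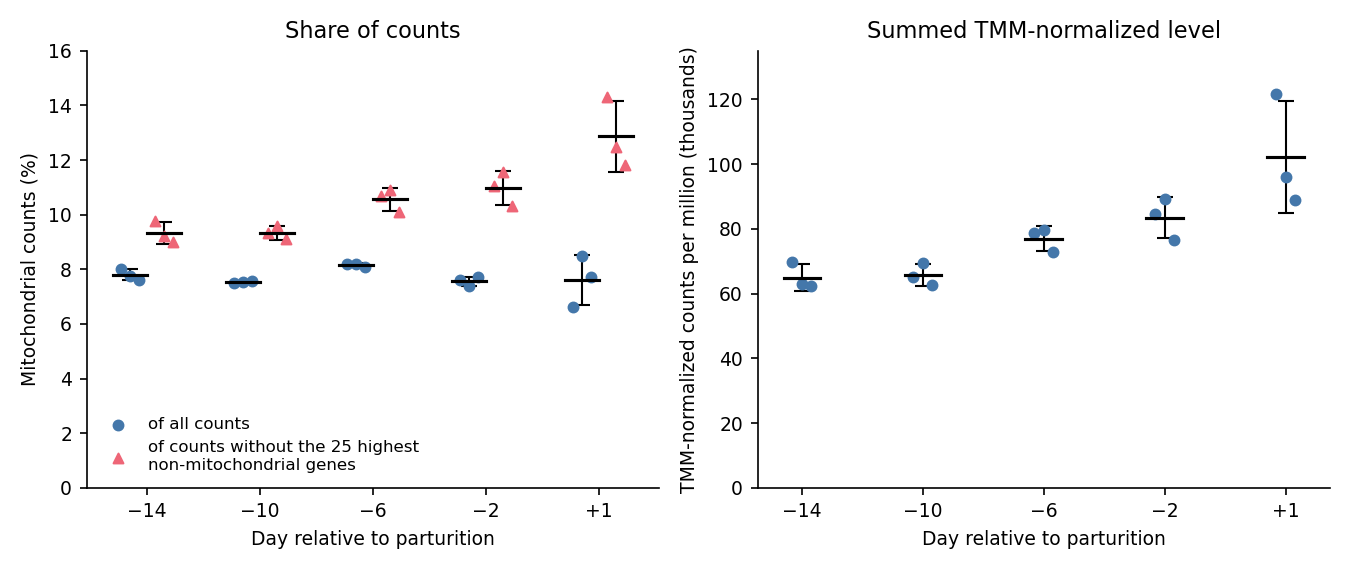
Left, percent of counts on the mitochondrial genome in each library (points) by day relative to parturition, of all counts (circles) and of counts without the 25 highest non-mitochondrial genes (triangles). Right, summed TMM-normalized CPM of the 37 genes. Bars are means ± SD of 3 libraries. The share of all counts stays between 6.63% and 8.47%, whereas the TMM-normalized sum is 1.57-fold higher at +1 than at −14, a rise that is absent without TMM (0.975-fold).

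On the TMM scale the sum of the 37 genes climbed toward parturition. It was 64894 ± 4098 CPM (counts-per-million, library sizes scaled by TMM; SD, n = 3) at 14 d, 65682 ± 3378 at 10 d, 77009 ± 3762 at 6 d and 83475 ± 6412 at 2 d prepartum, and 102186 ± 17290 at 1 d postpartum. The libraries of 6 d, 2 d and 1 d postpartum all lay above those of 14 d, those of 10 d overlapped with them, and those of 1 d postpartum overlapped with those of 2 d. The postpartum sums were 121729 in library 37, 95952 in library 40 and 88877 in library 43. The ratio of the postpartum to the 14 d mean was 1.57 with TMM and 0.975 with total counts alone, so the direction depends on the scaling. Without TMM the median log2 fold change of all 13503 tested genes in +1vs-14 was -0.64, against 0.02 with TMM. As these are bulk tissue samples, a change in the cells that make up the tissue and a change in RNA per cell cannot be told apart.

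Nearly all mitochondrial counts came from the protein-coding genes. Over the 15 libraries these held 19524334 counts, the rRNA genes 112149 and the tRNA genes 1356. The protein-coding class alone had 64498 ± 3977 CPM (SD, n = 3) at 14 d and 101367 ± 17624 CPM at 1 d postpartum on the TMM scale. The libraries were made with a kit for polyadenylated mRNA, so the balance between the classes, and between single genes, is that of captured RNA.

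The levels of the protein-coding genes spanned a wide range even after division by gene length. COX3 (MT:9800-10583, plus strand), a core subunit of complex IV, which passes electrons to oxygen, had the highest mean over the 15 libraries, 15144 TMM-normalized CPM per kb. COX1 (MT:6511-8055), the catalytic subunit of the same complex, had 14206 CPM per kb, ATP6 (MT:9120-9800), of the proton channel of ATP synthase, had 14098, and COX2 (MT:8203-8890), which takes electrons from cytochrome c, had 12349. The SD over the 15 libraries was 2316, 4097, 3064 and 2720 CPM per kb for these genes, and it includes the changes over time. COX2 had the lowest mean of these genes at every time point, with 9658 CPM per kb at 14 d prepartum and 15695 at 1 d postpartum. COX3 was highest at 14 d, at 12897 against 11289 for ATP6 and 11081 for COX1. At 1 d postpartum COX1 had 20687, ATP6 18751 and COX3 18036, so the order of COX3, COX1 and ATP6 is not resolved. CYTB (MT:15342-16481), the mitochondrial subunit of complex III, followed with 5506 CPM per kb. The complex I subunits ND2 (MT:5087-6130), ND1 (MT:3922-4878) and ND4 (MT:11359-12736) had 4229, 3825 and 3701 CPM per kb, ATP8 (MT:8959-9162), the other mitochondrial subunit of ATP synthase, had 3187, and ND3 (MT:10653-10998), ND5 (MT:12935-14755) and ND4L (MT:11069-11365) had 2953, 2445 and 2172.

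ND6 (MT:14739-15266) stood apart at 86.3 CPM per kb. It is the only protein-coding gene on the minus strand and codes for another complex I subunit. COX3 was 175-fold above it per kb, and ND5, its neighbour on the opposite strand with an overlap of 17 bases, was 28.3-fold above it. The part that capture of polyadenylated RNA has in these gaps was not tested. The longer rRNA ENSSSCG00000018063 (MT:2274-3844) had 213 CPM per kb and the shorter rRNA ENSSSCG00000018061 (MT:1246-2205) had 130, both below every plus-strand protein-coding gene.

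Short and overlapping genes lose reads in counting, since a read of 100 bases that touches a second gene on the same strand was not counted for either. ATP8 overlaps ATP6 by 43 bases and lies beside a tRNA gene, which leaves 63 read positions unique to it. Per such position ATP8 had 10.3 CPM, rank 5 of the 15 mRNA and rRNA genes, whereas per kb it ranked 9. ATP6 was 4.42-fold above ATP8 per kb and 1.73-fold above it per position. COX1 ranked 2 per kb and 4 per position.

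**Figure D2:**
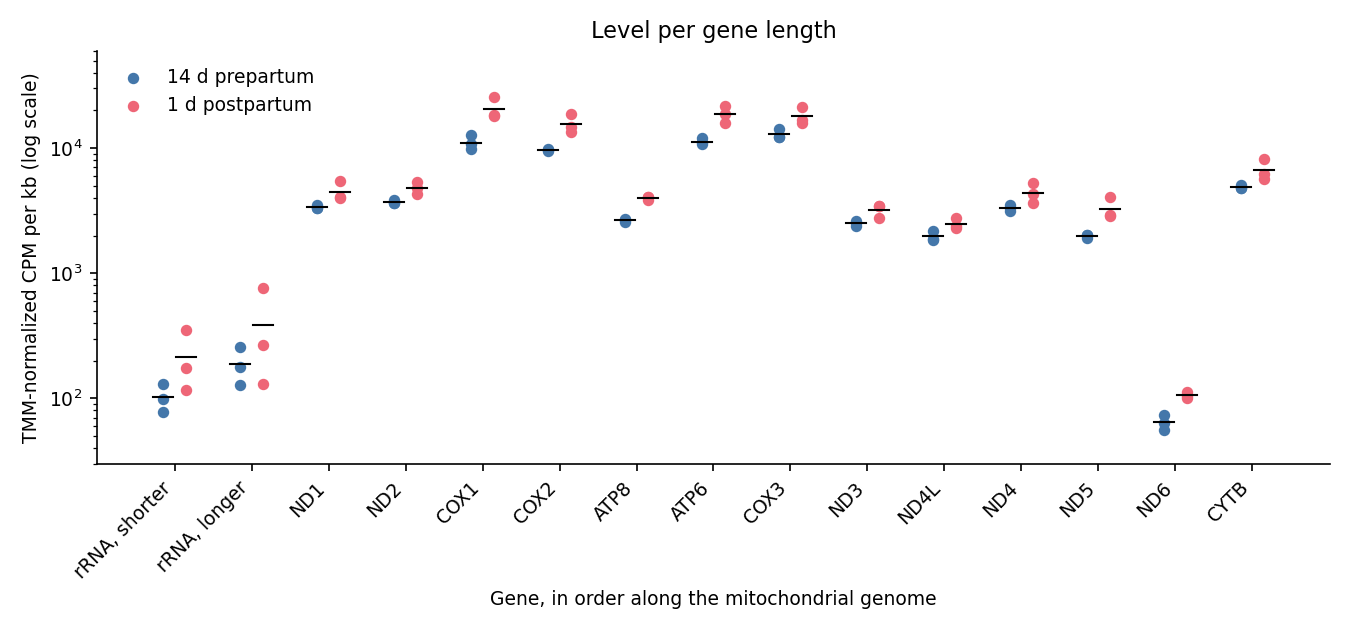
TMM-normalized CPM per kb of gene length (log scale) of the 2 rRNA and 13 protein-coding genes, in their order along the mitochondrial genome, at 14 d prepartum and 1 d postpartum. Points are libraries and bars are means. COX1, COX2, ATP6 and COX3 sit highest and ND6 lowest at both time points, and the postpartum points lie above the 14 d points for all 13 protein-coding genes, which holds for none of them without TMM.

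For the tests, 17 of the 37 genes passed the filter on low counts (1 CPM or more in 3 or more libraries), namely the 13 protein-coding genes, both rRNA genes and the tRNA genes ENSSSCG00000018068 and ENSSSCG00000018076. A gene was called on edgeR's quasi-likelihood test, with Benjamini-Hochberg adjustment over all 13503 tested genes. The adjusted p had to be 0.05 or less both for time overall and for the comparison. Time was the only factor of this fit, although the sows were the same throughout, and the sow entered alternatives only. At 10 d and at 6 d against 14 d prepartum (-10vs-14, -6vs-14), 0 of the 17 were called with edgeR, as with DESeq2 and limma-voom, and edgeR called 0% of all tested genes. Of the 13503 tested genes, DESeq2 and limma-voom called 0 at 10 d, and at 6 d 122 and 23. Before adjustment, p was 0.05 or less for 0 of the 17 at 10 d, where 2.19% of all tested genes passed, and 3 at 6 d, where 8.81% did. The 13 protein-coding genes had a median log2 fold change of 0.04 at 10 d and 0.24 at 6 d.

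In -2vs-14, 0 of the 17 were called, where 2.84% of all tested genes were, and 9 of the 17 had an unadjusted p of 0.05 or less, where 21.4% of all tested genes had. The median log2 fold change of the 13 protein-coding genes was 0.33, against -0.01 over all tested genes. ATP6 had a log2 fold change of 0.43 ± 0.12 (SE; edgeR adjusted p = 0.0663) and COX2 one of 0.50 ± 0.15 (edgeR adjusted p = 0.0759). When the sow was added to edgeR as a block, these 2 genes were called, where 5.07% of all tested genes were called higher. DESeq2 called 5 of the 17 higher (ND2, COX2, ATP6, ND3 and ND5), with 4.57% of all tested genes, and limma-voom with a random sow effect called 6 (these and COX3), with 4.76%. Without library 34 of 2 d prepartum, edgeR called COX2, ATP8 and ND6, where 573 of 13477 tested genes were called in either direction.

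In +1vs-14, 6 of the 17 tested genes were called, all higher postpartum, where 13.3% of all tested genes were called higher. They were COX1, COX2 and COX3 of complex IV, ATP6 of ATP synthase, ND5 of complex I and CYTB of complex III. The median log2 fold change of the 13 protein-coding genes was 0.48, against 0.02 over all tested genes. These calls rest on TMM: with total counts alone 0 of the 17 were called, where 3.93% of all tested genes were called higher, and the median of the 13 was -0.20, against -0.64 over all tested genes. With the RNA integrity number of each library as a covariate 0 of the 17 and 0.563% of all tested genes were called, with log2 fold changes of the 13 protein-coding genes between 0.23 and 1.44. Of all 13503 tested genes this fit called 0 in -2vs-14, against 384 without the covariate, and 999 in +1vs-2, against 2059. How far the RNA integrity number differed between time points was not tested, so these calls do not separate RNA integrity from time. DESeq2 called 13 of the 17 higher, with 16.7% of all tested genes, and limma-voom with a random sow effect called 12, with 15.6%.

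COX1 showed the largest change of the 13. On the TMM scale it had 19517, 16698 and 15146 CPM at 14 d prepartum, 23178, 24536 and 19438 at 2 d, and 39370, 28548 and 27964 at 1 d postpartum. Every postpartum library lay above every prepartum one, and library 37 was the highest. The log2 fold change was 0.90 ± 0.15 in +1vs-14 (SE; edgeR adjusted p = 0.000773) and 0.20 without TMM.

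ATP6 had 8128, 7321 and 7614 CPM at 14 d, 10171, 11094 and 9898 at 2 d, and 14772, 12664 and 10872 at 1 d postpartum on the TMM scale. Its 2 d libraries lay between the 14 d and, but for library 31, the postpartum ones. The log2 fold change was 0.73 ± 0.12 in +1vs-14 (SE; edgeR adjusted p = 0.000517) and 0.05 without TMM.

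ND5, which forms part of the proton-pumping arm of complex I, had 3708, 3464 and 3683 CPM at 14 d and 7354, 5239 and 5334 at 1 d postpartum. Its log2 fold change was 0.72 ± 0.13 (SE; edgeR adjusted p = 0.000989), and 0.02 without TMM. COX2 had 6811, 6477 and 6647 CPM at 14 d and 12938, 10131 and 9326 postpartum. Its log2 fold change was 0.70 ± 0.15 (SE; edgeR adjusted p = 0.00265), and 0.01 without TMM. In both genes the 14 d libraries lay close together and the postpartum library 37 stood above the other 2.

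COX3 had 11179, 9615 and 9541 CPM at 14 d and 16732, 13132 and 12558 postpartum, and CYTB had 5781, 5464 and 5435 against 9365, 7067 and 6399. Neither gene overlapped between these time points on the TMM scale. The log2 fold change was 0.48 ± 0.12 for COX3 (SE; edgeR adjusted p = 0.00810) and 0.45 ± 0.13 for CYTB (SE; edgeR adjusted p = 0.0148), and without TMM both values were below 0, at -0.20 and -0.25. Without library 4 or library 7 of 14 d prepartum, COX3 and CYTB were no longer called, and without library 1 CYTB was not.

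The other 7 protein-coding genes passed the test of +1vs-14 itself but not the overall test of time, so they were not called. By the comparison's adjusted p alone 14 of the 17 passed, where 33.3% of all tested genes did. ATP8 had a log2 fold change of 0.59 and ND6 one of 0.72, and the complex I genes ND1, ND4, ND2, ND3 and ND4L had 0.41, 0.39, 0.38, 0.36 and 0.33. Their adjusted p in the overall test of edgeR ran from 0.0500291 for ND2 to 0.129 for ND6. Without TMM the values of ND1, ND2, ND3, ND4, ND4L and ATP8 were below 0 and that of ND6 was 0.07. All 13 protein-coding genes had postpartum libraries that lay wholly above those of 14 d on the TMM scale, as 19.5% of all tested genes did, and 0 of them did on the scale of total counts, where 3.98% of all tested genes did and 5 of the 13 lay wholly below.

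In +1vs-2, COX1 alone of the 17 was called, where 15.2% of all tested genes were called in either direction and 8.01% higher. Its log2 fold change was 0.51 ± 0.15 (SE; edgeR adjusted p = 0.0343), and without TMM it was not called. DESeq2 called 4 of the 17 higher, with 10.6% of all tested genes, and limma-voom called 2, with 9.95%. COX1 was also not called without library 28 or 34 of 2 d prepartum or library 37 of 1 d postpartum.

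**Figure D3:**
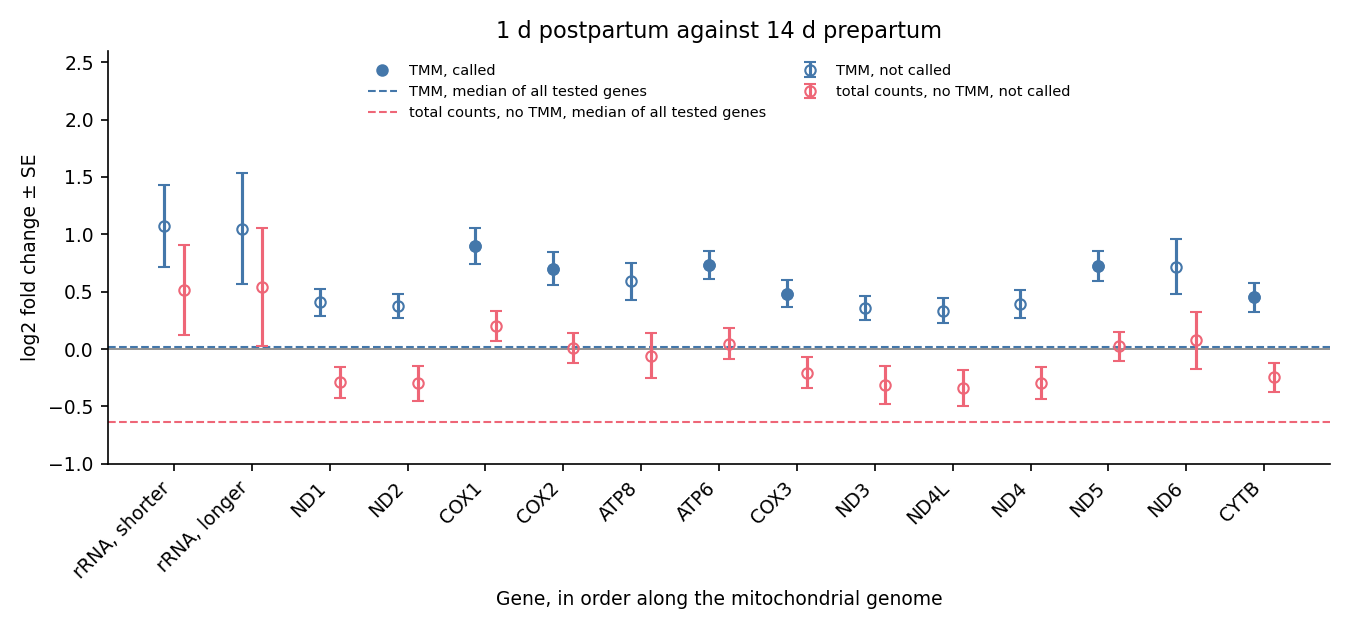
log2 fold change ± SE in +1vs-14 of the 2 rRNA and 13 protein-coding genes in genome order, with TMM (blue) and with total counts alone (red). Filled points were called and dashed lines are the medians of all tested genes. With TMM all 15 values are above 0 and 6 are called, whereas without TMM 8 are below 0, all 15 lie above the median of all tested genes (-0.64) and none is called.

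The make-up of the mitochondrial mRNA shifted as well, and this does not depend on the scaling because every share is taken within a library. COX1 took 28.2%, 26.7% and 24.4% of the protein-coding counts at 14 d prepartum and 32.4%, 30.2% and 31.7% at 1 d postpartum, a mean of 26.5% ± 1.92 against 31.4% ± 1.11 (SD, n = 3). All 3 postpartum libraries lay above all 12 prepartum ones. COX3 went the other way, from 15.7% ± 0.454 to 14.0% ± 0.228, and so did CYTB, from 8.63% ± 0.227 to 7.48% ± 0.232. Among the complex I genes, ND4 had 7.14% ± 0.227 against 5.96% ± 0.308, ND2 6.03% ± 0.506 against 5.01% ± 0.367, ND1 5.04% ± 0.386 against 4.24% ± 0.0946, and ND4L 0.906% ± 0.0304 against 0.733% ± 0.050. For these 6 genes all postpartum libraries lay below all those of 14 d. The shares of a library add up to the whole, so a higher share of COX1 by itself lowers those of the other genes. A lower share is thus not a lower level, and on the TMM scale COX3 and CYTB were called higher. The shares of COX2, ATP8, ATP6, ND3, ND5 and ND6 overlapped between these time points, and ATP6 had 11.9% ± 0.316 against 12.6% ± 0.681. With 3 libraries per time point these shares were described without a test, and the part of RNA integrity in them was not tested.

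**Figure D4:**
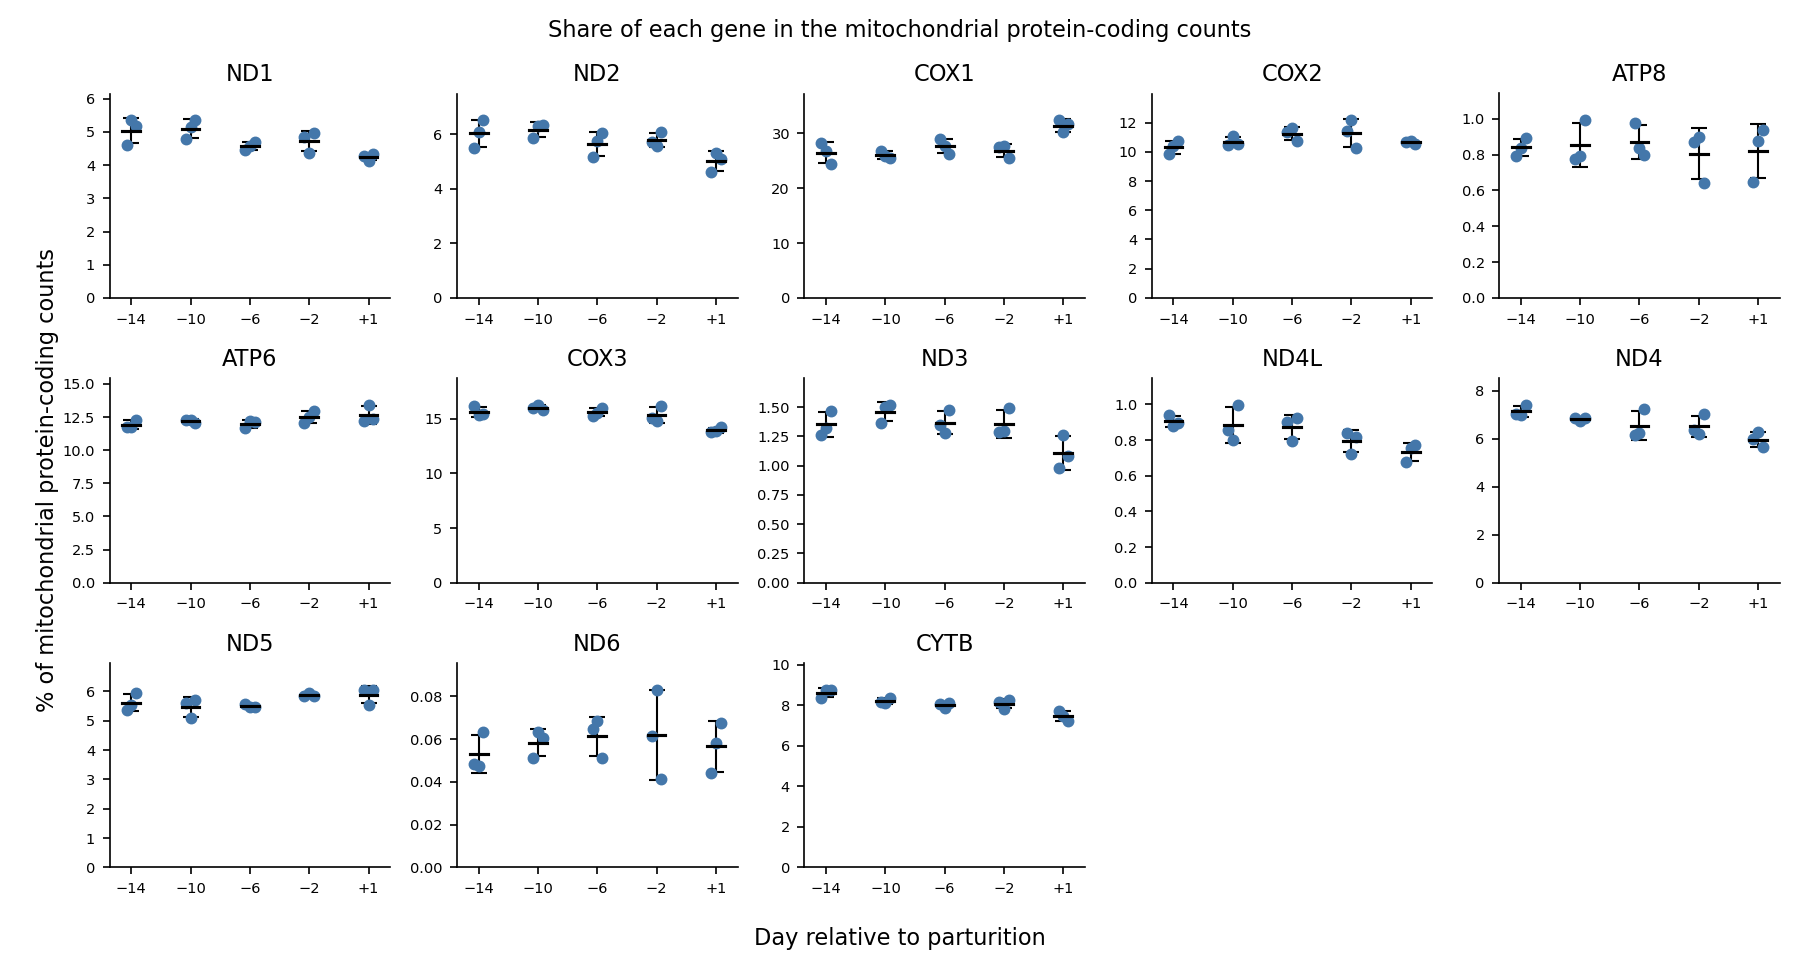
Percent of the mitochondrial protein-coding counts on each of the 13 genes, in each library (points) by day relative to parturition. Bars are means ± SD of 3 libraries and each panel has its own axis from 0. COX1 is at 30.2% to 32.4% at +1, above all earlier libraries, and COX3, CYTB, ND1, ND2, ND4 and ND4L are lower at +1 than in any library of −14.

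The postpartum levels of the rRNA genes differed widely between libraries. ENSSSCG00000018063 had 402, 279 and 199 CPM at 14 d on the TMM scale, 207, 331 and 186 at 2 d, and 206, 1196 and 418 at 1 d postpartum. Library 40 held the value of 1196, and library 37 lay within the range of 14 d. The log2 fold change in +1vs-14 was 1.05 ± 0.48 (SE; edgeR adjusted p = 0.112), and 0.09 without library 40. ENSSSCG00000018061 had 125, 95.2 and 74.2 CPM at 14 d and 112, 338 and 167 postpartum. Its log2 fold change was 1.07 ± 0.36 (SE; edgeR adjusted p = 0.0338, overall test of time 0.0848), and 0.51 without library 40. In edgeR with a sow block this gene was called in +1vs-14 (edgeR adjusted p = 0.0125, with 16.3% of all tested genes called higher) and in +1vs-2 (edgeR adjusted p = 0.0175, with 10.6%). Without library 37 both rRNA genes were called in both comparisons. That fit called 3833 of 13469 tested genes in either direction in +1vs-14 and 2996 in +1vs-2.

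Within libraries, there were 6.01 ± 1.60 rRNA counts per 1000 protein-coding counts at 14 d (SD, n = 3) and 4.08 ± 1.12 at 2 d prepartum. The postpartum libraries had 2.62 in library 37, 16.2 in library 40 and 6.63 in library 43, the lowest and the highest values of all 15. The longer rRNA had 2.95 counts per count of the shorter one at 14 d on average, 1.84 in library 37 and 3.54 in library 40, which were again the extremes.

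The tRNA genes were hardly counted. Of the 22, 8 had no count in any library, and 9, which include 7 of these 8, lie so close to other genes that no read position is unique to them. ENSSSCG00000018076 (MT:8059-8129, minus strand) held 787 of the 1356 tRNA counts, and ENSSSCG00000018068 (MT:5017-5086, plus strand) held 251. ENSSSCG00000018077 followed with 89 counts, ENSSSCG00000018067 with 65 and ENSSSCG00000018070 with 55. ENSSSCG00000018096 had 27 counts, ENSSSCG00000018071 24, ENSSSCG00000018095 21, ENSSSCG00000018074 16 and ENSSSCG00000018066 14. ENSSSCG00000018093 had 3, ENSSSCG00000018060 2, and ENSSSCG00000018064 and ENSSSCG00000018073 1 each. The 8 tRNA genes on the minus strand, where ND6 is the only other gene, held 923 counts and the 14 on the plus strand 433.

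ENSSSCG00000018076 had 63, 28 and 37 counts at 14 d, 85, 87 and 8 at 2 d, and 9, 56 and 81 at 1 d postpartum. The low libraries 34 and 37 set its spread, and its log2 fold change of 1.20 ± 0.68 in +1vs-14 did not pass the test (SE; edgeR adjusted p = 0.194). With 1 library left out it ran from 0.93 to 1.60. That of ENSSSCG00000018068 was 0.16 ± 0.61 (SE; edgeR adjusted p = 0.866), from 19, 31 and 10 counts at 14 d and 2, 8 and 22 at 1 d postpartum. Neither value passed the test at these counts, which does not show that the levels were alike.

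A list of nuclear OXPHOS subunits held 105 symbols, which include older and newer symbols of the same gene and the inhibitor ATP5IF1. Only 44 of these symbols matched an identifier, so the set of subunits is incomplete. Of these 44 genes, all tested, 2 were called higher and 5 lower in +1vs-14, where 23.7% of all tested genes were called. Their median log2 fold change was -0.01, against 0.02 over all tested genes, and without TMM it was -0.71, against -0.64, with 0 called higher and 35 lower, where 38.2% of all tested genes were called lower. With the RNA integrity number as a covariate 0 were called. ATP5ME, a small membrane subunit of ATP synthase, rose by 1.01 ± 0.16 (log2, SE; edgeR adjusted p = 0.000449), and UQCR10 of complex III rose by 0.45 ± 0.13 (edgeR adjusted p = 0.0154), a value that was -0.24 without TMM. COX7A2L, which joins complexes III and IV, fell by 0.47 on the log2 scale, NDUFS5 of complex I fell by 0.43 and ATP5MC3, of the membrane ring of ATP synthase, fell by 0.38. In -2vs-14, ATP5ME and UQCR10 were the only 2 of the 44 called, where 2.84% of all tested genes were, with log2 fold changes of 0.74 and 0.52, and the list median was 0.18. UQCR10 was not called with RLE normalization or without the filter on low counts, and neither gene was called without TMM or with the RNA integrity number as a covariate.

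Set side by side by complex, the mitochondrial subunits had the higher medians. In +1vs-14 the median log2 fold change was 0.70 for the 3 mitochondrial subunits of complex IV and 0.00 for the 6 nuclear ones. For complex I, the 7 mitochondrial subunits had 0.39 and the 21 nuclear ones -0.02, and for ATP synthase the 2 mitochondrial subunits had 0.66 and the 6 nuclear genes -0.07. The nuclear genes were assigned to a complex by the start of their symbol alone. ATP5IF1, an inhibitor and not a subunit, was thus counted with ATP synthase, COX7A2L with complex IV and NDUFA4 with complex I.

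Since both sets come from one library, their ratio does not depend on the scaling either. This ratio was chosen after the values were seen, and the part of RNA integrity in it was not tested. There were 16.6, 14.9 and 15.4 mitochondrial protein-coding counts per count on the 44 nuclear OXPHOS genes at 14 d prepartum, 17.3, 18.5 and 16.5 at 2 d, and 23.3, 27.0 and 23.6 at 1 d postpartum. The mean was 15.6 ± 0.882 at 14 d, 14.8 ± 0.213 at 10 d, 18.3 ± 1.09 at 6 d, 17.4 ± 1.01 at 2 d and 24.6 ± 2.02 at 1 d postpartum (SD, n = 3). The postpartum libraries lay above all 12 prepartum ones, library 37 with its low TMM factor included. Over the same libraries the nuclear set went from 0.497% ± 0.0206 of all counts at 14 d to 0.306% ± 0.0203 at 1 d postpartum.

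**Figure D5:**
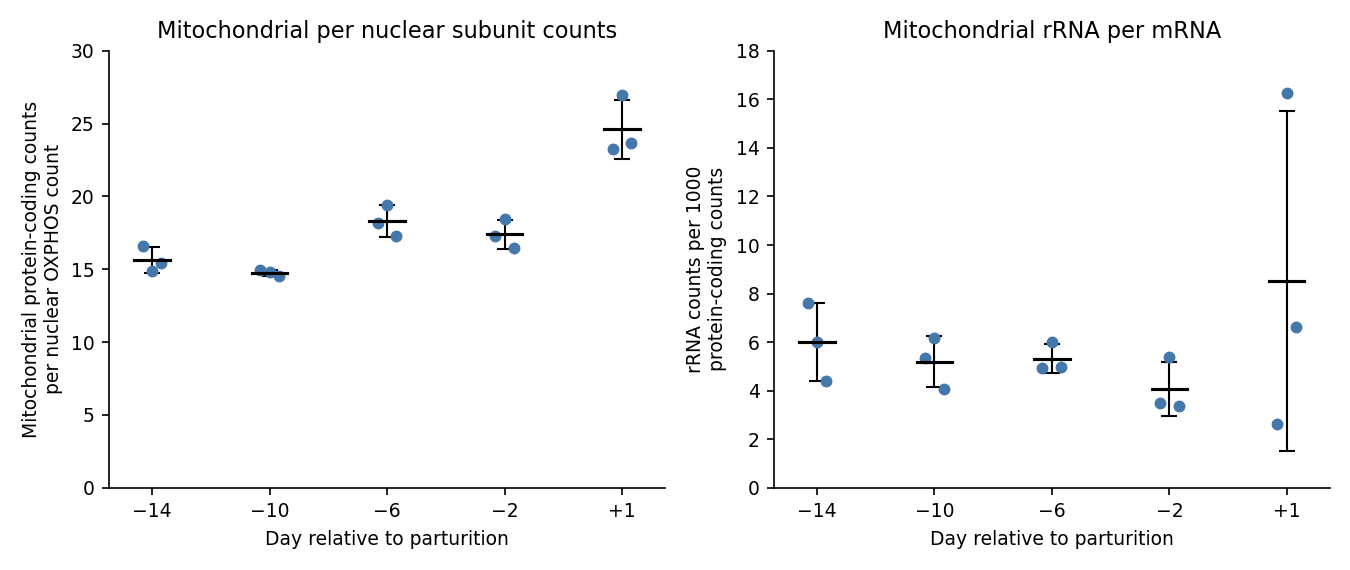
Ratios taken within each library (points) by day relative to parturition, with means ± SD of 3 libraries. Left, mitochondrial protein-coding counts per count on 44 nuclear OXPHOS subunit genes, 23.3 to 27.0 at +1 and at most 19.4 before. Right, mitochondrial rRNA counts per 1000 mitochondrial protein-coding counts, where the +1 libraries hold both the lowest value (2.62) and the highest (16.2).

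The other nuclear lists held genes called in both directions. Their counts are to be read against the 23.7% of all tested genes called in +1vs-14. Of 46 mitochondrial ribosomal protein genes tested, 1 was called higher and 6 lower in +1vs-14, and 0 with the RNA integrity number as a covariate, with a median log2 fold change of -0.11. MRPL13 rose by 0.38 on the log2 scale, a value that was -0.24 without TMM and not called with TMM computed without the 25 highest genes or with either other filter on low counts, and MRPS26, MRPL46 and MRPL30 fell by 0.65, 0.62 and 0.46. All of these encode proteins of the mitochondrial ribosome.

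Of 43 factors of mitochondrial DNA and RNA, 4 were called higher and 6 lower, where 23.7% of all tested genes were called, with a median log2 fold change of -0.04. With the RNA integrity number as a covariate 0 were called higher and 1 lower. PPARGC1B, a transcriptional coactivator of mitochondrial biogenesis, rose by 1.23 ± 0.30 (log2, SE; edgeR adjusted p = 0.00759), from 5.07 ± 1.26 to 11.8 ± 2.09 CPM (SD, n = 3). ESRRA, the nuclear receptor it binds, rose by 0.84 ± 0.20 (edgeR adjusted p = 0.00552), from 41.8 ± 9.63 to 74.6 ± 8.09 CPM, and GFM2, which recycles mitochondrial ribosomes, rose by 0.96. NRF1, a transcription factor for nuclear genes of the respiratory chain, fell by 0.73 on the log2 scale, from 20.6 ± 2.30 to 12.3 ± 1.26 CPM. MGME1, an exonuclease that acts on mitochondrial DNA, fell by 1.05 on the log2 scale, from 32.1 ± 1.18 to 15.5 ± 0.740 CPM (edgeR adjusted p = 9.27e-06), and TUFM, the mitochondrial elongation factor, fell by 0.78. Of 23 assembly factors of the OXPHOS complexes, 2 were called higher and 3 lower, where 23.7% of all tested genes were called, and 0 with the RNA integrity number, with a median log2 fold change of -0.03. ATPAF2 and TMEM70, which both assist ATP synthase, rose by 0.93 and 0.61, and NDUFAF5, NDUFAF3 and UQCC2 fell by 0.63, 0.46 and 0.39. Without TMM 0 genes of these 3 lists were called higher, and 37 of the 46 ribosomal protein genes, 24 of the 43 DNA and RNA factors and 14 of the 23 assembly factors were called lower, where 38.2% of all tested genes were.

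Marker lists of the cell types of the gland were followed beside these levels. Most of their genes were not called in +1vs-14, as was so for all tested genes, of which 23.7% were called. The summed TMM-normalized level of 7 luminal epithelial markers was 1656 to 1975 CPM at 14 d and 2136 to 2763 at 1 d postpartum. Only EPCAM was called, with a log2 fold change of 0.81, while CDH1 had 0.03, ESR1 0.04 and PGR -1.20. The sum of 5 fibroblast markers was 3037 to 5994 CPM at 14 d and 1715 to 2987 postpartum, with LUM alone called lower. The sum of 4 leukocyte markers was 45.4 to 52.0 CPM at 14 d and 36.0 to 41.3 postpartum, with PTPRC alone of the 3 tested called lower. These 3 sums did not overlap between the time points, the luminal one being higher postpartum and the others lower. Of all tested genes taken singly, 19.5% lay wholly above 14 d on this scale, and the share wholly below was not computed. The sums of 3 endothelial, 2 myoepithelial, 2 adipocyte and 3 red blood cell markers overlapped, with TEK and OXTR called higher and PLIN1 lower. The other myoepithelial marker, TP63, went from a mean of 12.2 CPM at 14 d to 6.39 postpartum. The other adipocyte marker, CIDEC, went from 2.51 to 4.10 CPM. The endothelial markers PECAM1 and KDR had 281 and 89.4 CPM at 14 d and 285 and 94.5 postpartum. Of 4 skeletal muscle markers ACTA1 was called higher, with a mean of 1.47 CPM at 14 d and 14.0 at 1 d postpartum. CA3 had 2.64 and 1.00 CPM, TNNC2 0.0747 and 0, and MYL1 was at 0 at both. The part of these shifts in the mitochondrial levels was not tested.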

How the data were processed

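Mammary RNA from 3 sows at 5 time points was sequenced as 15 single-end libraries with a stranded kit for polyadenylated mRNA. The authors aligned the reads with STAR 2.5.1b to Sscrofa10.2 and deposited raw counts per gene, made with featureCounts (Subread 1.5.0) on exons with reverse-stranded counting. The annotation is Ensembl's per the file headers, although the Methods state RefSeq. Reads that touch several genes or map to several places were not counted, which lowers short and overlapping genes and any mitochondrial gene with a nuclear copy.

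Members were taken by chromosome, and their class by length and position. The gene lists and tests were chosen with earlier results of these data known. All members with a count are named, as are at most 3 increases and 3 decreases of each nuclear list among the genes called in +1vs-14. R 4.3.3 with edgeR 4.0.16 (TMM, quasi-likelihood test, time as the factor, all 15 libraries), limma 3.58.1 and DESeq2 1.42.0 were used, on genes that reached 1 CPM in 3 or more libraries. SE is the absolute log2 fold change divided by the square root of F. The tests were tried on simulated counts. Libraries of a time point differed pairwise in the counts of 16072 genes or more, so each was treated as a separate sample. Symbols matched 11804 of 25322 identifiers.

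The sow of a library was taken from the sample ID in the study's supplement, joined by total count within each time point, and entered alternatives only, as did the RNA integrity number. The 30 pairs of libraries of the same sow correlated by 0.396 on average in their deviations from the time point means. Each pair correlated by at least 0.103, so the sow pairs the libraries. The mean between sows was -0.198, which follows from the first value because the deviations cancel within a time point. The replicates of a time point are different sows.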

Additional observations from a re-analysis of the deposited data

How the results depend on the processing

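In -10vs-14 and -6vs-14, 0 mitochondrial genes were called under each alternative run. Of all tested genes, these alternatives called 0 in -10vs-14 and at most 122 of 13503 (DESeq2) in -6vs-14. In -2vs-14 the number of mitochondrial genes called was 0, against 5 with DESeq2, 6 with limma-voom and a random sow effect, and 2 with edgeR and the sow as a replicate block. In +1vs-14 it was 6, against 0 without TMM, 0 with the RNA integrity number as a covariate, 13 with DESeq2, 12 with limma-voom and 14 by the comparison's adjusted p alone. In +1vs-2 it was 1, against 0 without TMM, 0 with the RNA integrity number, 0 without the filter on low counts, 4 with DESeq2, 2 with limma-voom and 2 with the replicate block. With 1 library left out in turn it ran from 0 to 3 in -2vs-14, from 4 to 11 in +1vs-14 (11 without library 37 and 10 without library 43) and from 0 to 2 in +1vs-2. In +1vs-14 the fit without library 37 called 3833 of 13469 tested genes, and that without library 43 called 2548 of 13438. RLE normalization, TMM without the 25 highest genes and the filter in all 15 libraries moved none of the counts of mitochondrial genes.

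Without TMM, log2 fold changes in +1vs-14 were below 0 for ND1 (-0.29), ND2 (-0.30), ATP8 (-0.056), COX3 (-0.20), ND3 (-0.31), ND4L (-0.34), ND4 (-0.30), CYTB (-0.25), ENSSSCG00000018068 (-0.43), UQCR10 (-0.24) and MRPL13 (-0.24), as was that of ATP8 in -2vs-14 (-0.11). With 1 library left out, ENSSSCG00000018068 ran from -0.55 to 0.54. The share of all counts became 9.33%, 9.34%, 10.6%, 11.0% and 12.9% at the successive time points without the 25 highest genes. The summed level became 78092, 75526, 81600, 75733 and 76156 CPM without TMM. With TMM computed without the mitochondrial genes it became 70320, 71182, 83475, 90490 and 110804 CPM. The library sizes of that setting leave out the mitochondrial counts, and its ratio of the postpartum to the 14 d mean was 1.58, against 1.57 with TMM on all genes. With 1 library left out, the share at 1 d postpartum ran from 7.18% to 8.10% and the sum from 92414 to 108840 CPM. The causes were not tested. Few counts limited the tests of the tRNA genes. Under the replicate block, the calls of mitochondrial genes that changed were those of ATP6 and COX2 in -2vs-14, and of ENSSSCG00000018061 in +1vs-14 and +1vs-2. The block also called more nuclear genes, such as 3 OXPHOS subunits higher and 7 lower in +1vs-14 (2 and 5 without it), and in +1vs-2 4 assembly factors higher (1 without it).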
